A study of Mus musculus with 8 samples.

Results

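The cells described here were gut cells of wildtype mouse embryos in which the Bapx1 locus drove enhanced green fluorescent protein (EGFP). They were taken at mid-gestation (E12.5) and profiled on 4 of the 8 arrays of the series, chosen by their labels alone. The other 4 arrays held Bapx1 null gut cells of the same stage and strain and were not compared with them. Every embryo had the mixed strain C57BL/6J;129. In the wildtype embryos EGFP lay in the 3′ UTR of Bapx1, behind an internal ribosomal entry site and an intact coding region, and the study writes this genotype with a single targeted allele. The guts were dissected, dissociated with collagenase, DNAse and trypsin, and the EGFP-positive cells were sorted by fluorescence-activated cell sorting (FACS). The 4 samples are called biological replicates in the methods, which do not say how many embryos went into each. The sort selects cells that hold EGFP protein, while the arrays measured RNA.

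The homeobox gene Bapx1, also called Nkx3-2, is active in the gut mesenchyme, the spleen primordium, the vertebral column and the limbs. At midgestation the gut tube is a layer of endodermal epithelium wrapped in mesenchyme of the splanchnic mesoderm. The epithelium secretes hedgehog ligands, to which the mesenchyme responds, and the outer mesenchyme differentiates into circular smooth muscle while neural crest cells enter it and form the enteric nervous system. Hox genes mark the position of the mesenchyme along the gut. The stomach mesenchyme is known for Barx1, and the forkhead factors Foxf1 and Foxf2 mark gut mesenchyme as a whole.

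Each array reported the fluorescence of 45281 probes, of which 34885 carried a single gene symbol and represented 19057 genes. A gene was counted as detected where at least 1 of its probes had a detection score above 0.99 on all 4 arrays. By this rule 9375 genes were detected, which is 49.2% of the genes measured, another 1131 were detected on 1 to 3 arrays, and 8551 (44.9%) on none. Replicates 1 to 4 had 40.0%, 38.8%, 38.2% and 39.5% of their probes above the detection limit, with median intensities of 70.8, 65.9, 59.9 and 62.6. The arrays resembled each other closely, since the correlation of normalised log2 intensity across detected probes was between 0.9845 and 0.9898 for the 6 pairs (across probes, which are not independent replicates). A count of 4 arrays limits the precision of every mean below. Undetected genes are those whose probes gave no signal above background, which does not show that the transcript was absent.

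All 4 markers of gut mesenchyme were detected on every array. The probe of Acta2, the smooth muscle alpha-actin, read 13.03, 13.94, 13.78 and 14.11 on replicates 1 to 4 (normalised log2 intensity, the scale used for every level below). The mean was 13.72 ± 0.48 (SD, n = 4), and its signal held rank 77 among the detected genes. Acta2 was lowest on replicate 1, as were several other contractile genes described further on. Pdgfra, the receptor for platelet-derived growth factor that marks gut fibroblasts and their precursors, read 13.06, 12.79, 13.001 and 13.11 (rank 193) and was level on the arrays. Barx1 read 10.06, 9.93, 11.03 and 10.43 (rank 2373) and was highest on replicate 3. Foxf1 read 8.58, 8.57, 9.01 and 9.002 (rank 5066), with a range of 0.44. The gene that defined the sort was not among the detected ones. Nkx3-2 is represented by 2 probes, neither of which passed the detection limit on any array, and the brighter one (ILMN_2687592) read 4.48, 4.54, 4.48 and 4.51, at the level of undetected probes. The mesenchymal markers of the labelled tissue were thus present on every array, whereas the transcript by which the cells were sorted was not above background. The positions of its probes in the transcript were not analysed here.

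Ranks below are ranks of probe signal. Probes differ in how well they hybridise, so a rank is no measure of transcript amount. The signal fell steeply with rank. The 100 brightest genes held 16.4% of the summed signal of all detected genes, and the 1000 brightest held 52.5%. The translation elongation factor Eef1a1 had the highest mean intensity, 39287.8, and the dimmest detected gene had 87.1. Of the 100 brightest genes, 29 encoded ribosomal proteins, out of 56 such genes measured and 52 detected. The first 25 included 10 of them with Rpl41 (rank 3) and Rps29 (rank 9) at their head, the mitochondrial genome's CYTB, ND4 and ND1, the tubulin Tuba1b, and 5 histone H2A genes led by H2ac24 (rank 2). The H2A genes are near-identical copies, and the probes named Ubb-ps and Gm6548 (ranks 11 and 12) carry names of a pseudogene and a gene model, so which copy gave these signals is uncertain. Of the 100 brightest probes, 44 had no single gene symbol and are not described.

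**Figure D1:**
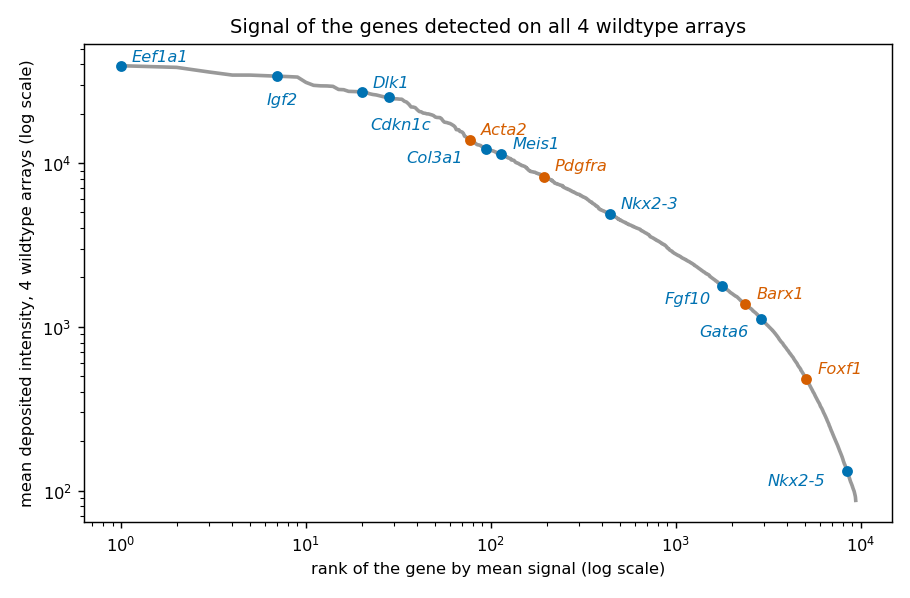
Mean deposited intensity over the 4 wildtype arrays (y, log scale) against the rank of each detected gene (x, log scale), as a line over 9375 genes with named genes as points, the 4 mesenchyme markers in orange. Igf2 and Dlk1 lie near the top of the curve, Acta2 and Pdgfra further along it, and Barx1, Foxf1 and Nkx2-5 further down.

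Beside genes that all cells use, the first 100 held a group of growth genes of the embryo, most of them imprinted. Igf2, the growth factor expressed from the paternal allele in most embryonic tissues, read 15.05, 15.10, 14.99 and 15.07 (rank 7). Dlk1, a paternally expressed transmembrane relative of Notch ligands, stood at rank 20 with 14.73 ± 0.11 (SD, n = 4). The cyclin-dependent kinase inhibitor Cdkn1c, expressed from the maternal allele, stood at rank 28 with 14.63 ± 0.07 (SD, n = 4). These 3 genes varied little, since their ranges over the arrays were 0.12, 0.23 and 0.15. Igfbp5, Grb10 and Mest followed at ranks 45, 47 and 81. Of 21 measured genes of the IGF pathway and of imprinted growth control, 19 were detected on all 4 arrays and 6 were among the first 100, beside 49.2% detected over all genes. Plagl1 and Igfbp6 were detected on none. The midkine gene Mdk (rank 13) and pleiotrophin, Ptn (rank 183), which encode related heparin-binding growth factors of embryonic mesenchyme, were bright as well.

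The transcription factors of the gut mesenchyme were mostly present. Of 42 measured, 33 were detected on all 4 arrays (78.6%, beside 49.2% of all genes), 2 on some and 7 on none. The homeobox genes Meis1 and Meis2, cofactors of Hox proteins, held ranks 114 and 214. Sox11, a factor of embryonic progenitors, read 13.04, 12.98, 12.99 and 13.05 (rank 192), a range of 0.06 for its brightest probe. Its dimmer probes ILMN_1251337, ILMN_2616196 and ILMN_2643394 ranged by 0.75, 0.29 and 0.95. Nkx2-3, a homeobox gene of gut and spleen mesenchyme, read 12.03, 12.28, 12.21 and 12.42 (rank 440). Isl1, a LIM homeobox gene known in the mesenchyme of the stomach, read 11.83, 12.14, 12.30 and 12.19 (rank 498), lowest on replicate 1. Tcf21 (rank 2772), a factor of spleen and visceral mesenchyme, was detected on all 4 arrays too, as were Foxf2 (rank 1342) and Gata6 (rank 2872), a pair named after their values were seen. Undetected on every array were Gata4, Tbx4, Tbx5 and Foxl1, a forkhead gene of the mesenchyme beneath the epithelium. Nkx2-5, which marks the pyloric sphincter and the spleen primordium, was detected near the lower end at rank 8403 and read 5.88, 7.18, 6.69 and 6.42. Of the other factors of spleen and pancreatic mesenchyme, Tlx1, which the spleen primordium needs, and the pancreas genes Pdx1 and Ptf1a were detected on none, while the iron exporter Slc40a1 read 11.43, 12.36, 11.84 and 11.10 and was highest on replicate 2.

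Hox genes were detected from all 4 clusters. In the HoxB cluster, Hoxb2, Hoxb3, Hoxb4, Hoxb5, Hoxb6 and Hoxb7 were detected on all 4 arrays, and Hoxb1, Hoxb8, Hoxb9 and Hoxb13 on none. In the HoxA cluster 7 of 10 measured genes were detected, with Hoxa5 at 10.82, 11.08, 11.29 and 11.04. In the HoxC cluster 4 of 9 were detected, with Hoxc6 at 10.94, 11.37, 11.29 and 11.80, and in the HoxD cluster 6 of 9, with Hoxd10 at 10.64, 10.89, 10.25 and 10.73. The detected shares of the HoxA, HoxB, HoxC and HoxD clusters were 70.0%, 60.0%, 44.4% and 66.7%, beside 49.2% of all genes. Some posterior genes were detected. Hoxa11 read 8.38, 8.87, 7.64 and 8.09, and it was highest on replicate 2 and lowest on replicate 3. Hoxa13, a gene of the hindgut and distal limb, was just above the limit at 6.11, 5.76, 6.26 and 6.09, while Hoxd13 was detected on none. The mean of the HoxB genes ranged by 0.20 over the arrays and that of the HoxD genes by 0.41. The former fell to 0.07 with median scaling and 0.11 without replicate 1, and the latter to 0.05 without replicate 3. On replicate 3, 5 of the 6 detected HoxD genes were lowest, against 2199 of all 9737 genes detected on at least 3 arrays. Hoxd3 read 7.57, 7.58, 6.68 and 7.44 and Hoxd9 7.38, 7.42, 6.71 and 7.58. Hoxd12 went the other way and was highest on replicate 3, at 7.06, 6.74, 7.63 and 6.56.

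**Figure D2:**
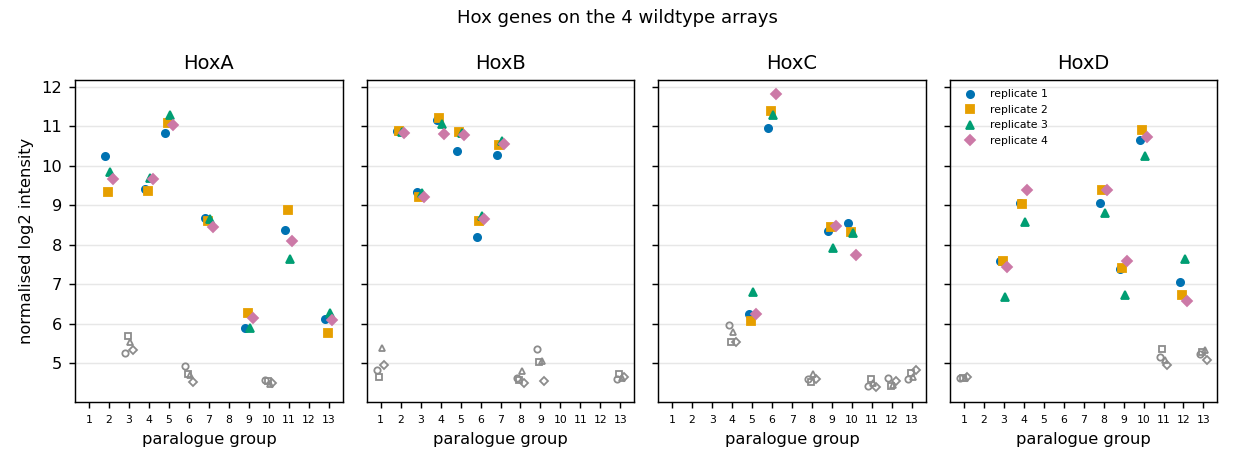
Normalised log2 intensity of the measured Hox genes (y) by paralogue group (x) in the 4 clusters, a symbol for each wildtype replicate, filled and coloured where the gene was detected on all 4 arrays and open grey otherwise. Detected genes cluster in groups 2 to 10, and replicate 3 lies lowest for most HoxD genes.

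Of 20 contractile genes of smooth muscle measured, 13 were detected on all 4 arrays (65.0%, beside 49.2% of all genes), 1 on some and 6 on none. Beside Acta2, the enteric actin Actg2, which marks visceral muscle, read 11.05, 12.15, 11.96 and 12.37 (rank 633). The myosin light chain kinase Mylk, which starts contraction, read 11.39, 12.29, 12.09 and 12.45 (rank 519). The heavy chain Myh11, a late marker of the lineage, read 6.69, 8.53, 7.71 and 8.10 (rank 6574). All 3 genes were lowest on replicate 1, while replicates 2, 3 and 4 lay above it. Cnn1, Lmod1 and Synpo2, genes of mature muscle, were detected on none, and Tagln, named after its value was seen, on a single array. Among the regulators, the serum response factor Srf (rank 1133) and its cofactor Myocd (rank 3006), the master regulator of smooth muscle, were detected on all 4 arrays. Replicate 1 was lowest for 11 of the 14 contractile genes detected on any array, and for 3051 of all 9737 genes detected on at least 3. The contractile list averaged 10.12, 10.49, 10.53 and 10.64 on replicates 1 to 4. The range of this mean fell from 0.52 to 0.14 without replicate 1.

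Srf acts through the CArG box, which the promoters of many contractile genes hold. RefSeq promoter windows from 250 bases before to 50 bases after the annotated start (build GRCm38.p6) were found for 25 of the 31 genes of the contractile and regulator lists, and 5 of these had an exact CArG box on either strand (the motif equals its own complement), or 20%, against 1.81% of all genes with a window. The matches of detected genes are shown with their flanks, and with the box in capitals, because Srf, the factor that binds this box, was itself detected. The remaining gene of the 5, Ldb3, was detected on no array and its match is not shown. Acta2, Actg2, Mylk and Myh11 were not among the 5, and a match may be missing where no window was found. Cnn2 and Ldb3 are named after their values were seen.
Myl9 (myosin regulatory light chain, chr2:156775295-156775320, plus strand, capitals starting at base -161 from the gene start): agcagaggCCTAATAAGGccgggctg
Myl6 (myosin essential light chain, chr10:128493042-128493067, minus strand, capitals starting at base -50 from the gene start): tcttacttCCTTATATGGgcaggacc
Cnn2 (calponin 2, chr10:79988536-79988561, plus strand, capitals starting at base -56 from the gene start): cttccacgCCTTATAAGGacatttgc
Srf (serum response factor, chr17:46556227-46556252, minus strand, capitals starting at base -82 from the gene start): ggggctcgCCATATAAGGagcggcct
Srf held a further box -62 bases from its start. The 4 genes read 9.95, 10.04, 10.16 and 10.42 (Myl9), 13.07, 13.09, 13.49 and 13.51 (Myl6), 9.27, 9.04, 9.20 and 8.84 (Cnn2) and 10.96, 11.35, 11.34 and 11.55 (Srf). Myl9, Myl6 and Srf were lowest on replicate 1 and Cnn2 was highest on it, with ranges of 0.47, 0.44, 0.43 and 0.59. A match is a description of the letters in this window and not a measured binding site.

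The pathways by which epithelium and mesenchyme signal to each other differed in how many members were detected, beside 49.2% of all genes. The hedgehog, FGF and Notch pathways were near that share, with 53.3%, 52.9% and 55%. In the hedgehog pathway 8 of 15 genes were detected on all 4 arrays, among them the receptor Ptch1 (rank 1634), the transducer Smo (rank 2829) and the effectors Gli2 and Gli3 (ranks 1289 and 767). The ligand genes Ihh and Dhh were detected on none and Shh on replicate 4 alone. Gli1, which was measured by a single probe, was detected on none. In the BMP and TGF-beta pathway 28 of 34 were detected on all 4 arrays, led by the receptors Tgfbr1 (rank 321) and Bmpr1a (rank 552), and Bmp2, Nog, Smad6 and Smad7 on none. Inhba, an activin subunit, varied most in this list and read 8.94, 7.20, 7.77 and 6.77, highest on replicate 1.

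In the Wnt pathway 27 of 40 genes were detected on all 4 arrays (67.5%). The secreted inhibitor Sfrp1 (rank 289), beta-catenin, Ctnnb1 (rank 68), and the ligand Wnt5a (rank 817), which elongates the gut tube, were the brightest of them with Sfrp2. Sfrp2 read 12.71, 11.21, 11.44 and 10.96 and was highest on replicate 1. Lef1, Dkk1, Wnt4 and Wnt11 were detected on none. In the FGF pathway 9 of 17 were detected, including the ligand Fgf10, made by gut mesenchyme, at 10.45, 10.90, 10.91 and 10.84 and the receptor Fgfr2 (rank 236). In the Notch pathway 11 of 20 were detected, with Jag1 (rank 2634) and Notch3 (rank 3256) in the lead. In the retinoic acid pathway 10 of 17 were detected (58.8%, beside 49.2% of all genes), and its members differed more among the arrays. Their median range was 0.82, against 0.30 for all genes detected on at least 3 arrays. Aldh1a1, which makes retinoic acid, read 8.82, 10.47, 9.60 and 10.25 and was lowest on replicate 1, whereas the binding protein Crabp1 read 11.36, 10.69, 10.86 and 9.66 and was lowest on replicate 4.

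All 15 collagen genes measured passed on every array, with Col3a1 (rank 94) and Col5a1 (rank 338) the brightest. Of 27 glycoprotein and proteoglycan genes, 23 passed (85.2%), led by Serpinh1 (rank 71), the collagen chaperone, with the microfibril gene Mfap2 at rank 300. Replicate 1 was highest for 20 of the 25 members detected on any array, and for 2158 of all 9737 genes detected on at least 3. The list averaged 10.74, 10.18, 10.23 and 10.10. The range of this mean fell from 0.65 to 0.13 without that array. The lysyl oxidase Lox, which cross-links collagen and elastin, read 11.70, 9.27, 9.13 and 8.65, so that replicate 1 stood above the other 3 by more than the spread among them. Of 19 cartilage genes 11 were detected on all 4 arrays (57.9%, beside 49.2% of all genes). Among them were the regulators Sox9 (rank 1561) and Sox5 (rank 3318) and the collagen gene Col9a1 (rank 1948). The mature cartilage genes Acan, Comp, Matn1 and Chad were detected on none. The cartilage collagen Col2a1 read 10.60, 8.50, 9.94 and 7.81, high on replicates 1 and 3 and low on replicates 2 and 4.

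Genes known from interstitial and mural cells and their precursors were detected as well. Kit, the receptor that the interstitial cells of Cajal need, read 11.31, 11.76, 11.13 and 11.61 (rank 954), and the chloride channel Ano1, their other marker, held rank 3992. The mural genes Pdgfrb, Abcc9 and Kcnj8 were detected on all 4 arrays. The guidance list had 16 of 22 genes detected on every array (72.7%, beside 49.2% of all genes). Cxcl12, the chemokine of mesenchyme, held rank 135 and was level, while Gdnf, the attractant that enteric neural crest cells follow, read 10.74, 11.57, 11.35 and 11.82 and was lowest on replicate 1. Among receptor tyrosine kinases and ephrins 15 of 18 were detected (83.3%), with Efna5 (rank 326) the brightest, and Met on none. Ntrk2, a neurotrophin receptor, read 9.58, 8.01, 8.57 and 6.68, highest on replicate 1 and lowest on replicate 4. Among adhesion genes 13 of 18 were detected (72.2%), and Vcam1 read 10.94, 9.81, 9.73 and 9.82, with replicate 1 apart from the other 3.

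Genes of dividing cells were detected nearly throughout. Of 30 cell cycle genes 27 passed on every array (90.0%, beside 49.2% of all genes), led by the helicase subunit Mcm4 (rank 118). The list mean moved by 0.15 over the arrays. The mitotic kinase Plk1 was an exception within the list, at 11.30, 9.81, 11.47 and 10.997, low on replicate 2. Among cyclin-dependent kinase inhibitors Cdkn1c was far up the ranking, while Cdkn1a stood at rank 9359 and Cdkn2a was detected on none. All 21 splicing factors, all 12 translation factors and all 12 cytoskeletal genes measured were detected on every array. The means of the splicing list and of the respiratory chain list ranged by 0.02 and 0.05, and those of the ribosomal lists by 0.06 and 0.07. These narrow ranges rest on the quantile normalisation, since with no normalisation between arrays those of the splicing and respiratory chain lists were both 0.45.

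**Figure D3:**
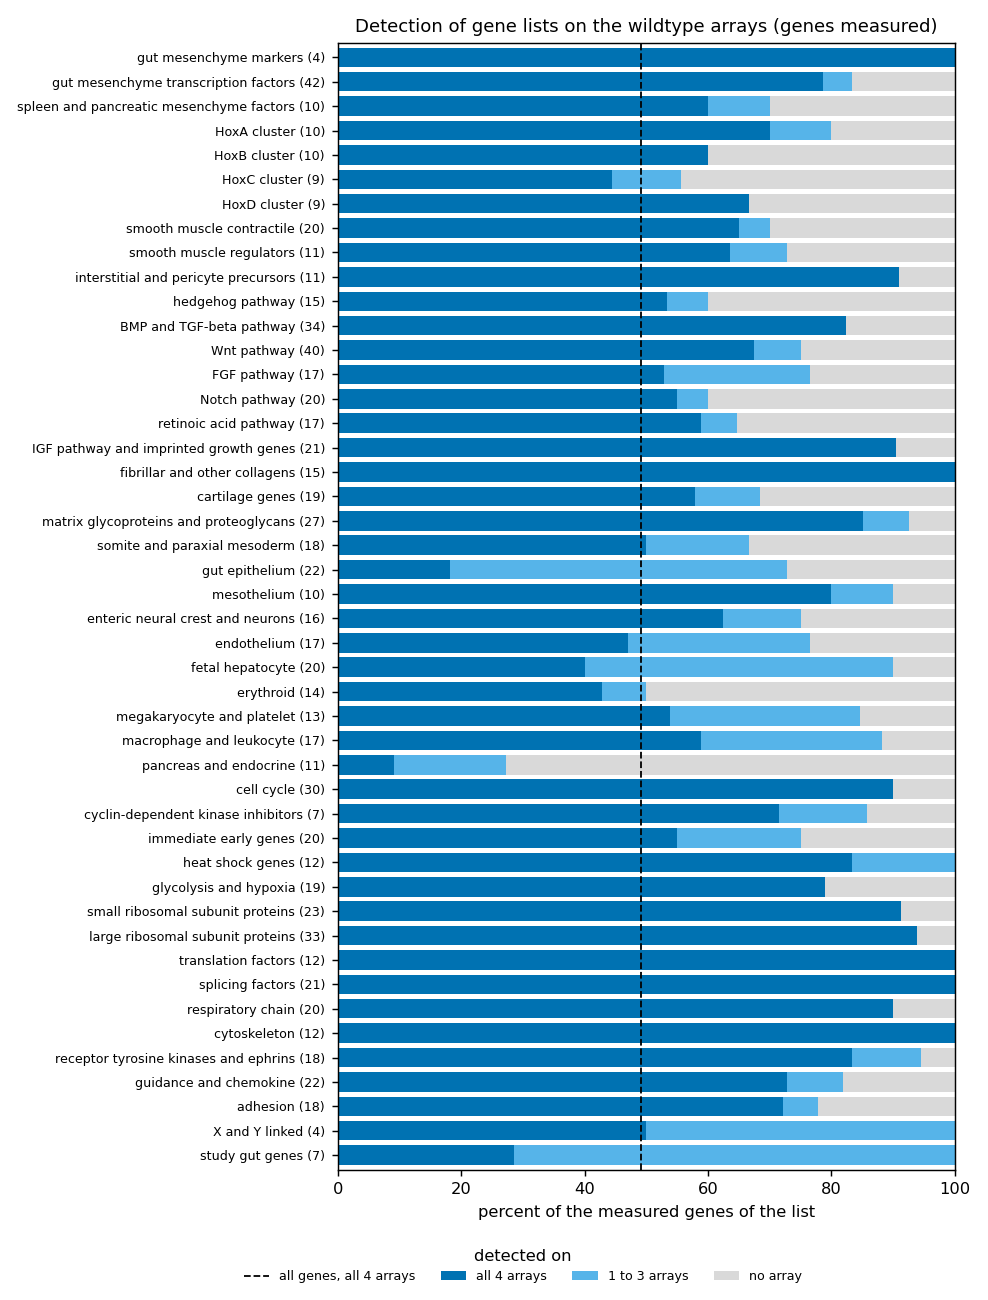
Share of the measured genes of each of the 46 gene lists (x, percent; number of genes measured in brackets) that were detected on all 4 wildtype arrays, on 1 to 3 or on none, with a dashed line at the 49.2% of all genes detected on all 4. Collagens, splicing and translation factors and the cytoskeleton were detected in full, while gut epithelium and pancreas were detected on all 4 arrays for 18.2% and 9.1% of their genes.

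The 4 wildtype arrays were alike for most genes. Of 9737 genes detected on at least 3 arrays, the median range of a gene over the 4 arrays was 0.30 and the median SD 0.13. The range shrank with signal, from a median of 0.45 in the dimmest of 5 equal groups of genes to 0.21 in the brightest. A range over 2, which is a 4-fold difference between the highest and the lowest array, was found for 87 genes, or 0.893%. Without replicate 3 this number was 48, and 46 of these were among the 87. Of the 87, 44 belonged to a gene list and 43 to none, and most of the latter are not described here. Of the 87, 56 were highest on replicate 1, and 50 were lowest on replicate 3 and 25 on replicate 4. Over all 9737 genes, replicates 1 to 4 were highest for 2158, 2233, 2701 and 2645 and lowest for 3051, 2606, 2199 and 1881. Counts of list members that were highest or lowest on an array are read beside these. The mean level of 8 of 46 lists moved by more than 1 on the log2 scale, and without replicate 1 this held for 5. The 8 lists were those of fetal hepatocytes, platelets, erythroid cells, somites, gut epithelium, pancreas, X- and Y-linked genes, and the gut genes picked out by the study, a list chosen on these samples that shares genes with the hepatocyte list. No comparison of groups can be tested within a single group, and the values below are descriptions. Where a cell type is named, fewer cells of it and less RNA per cell cannot be told apart in such bulk samples.

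**Figure D4:**
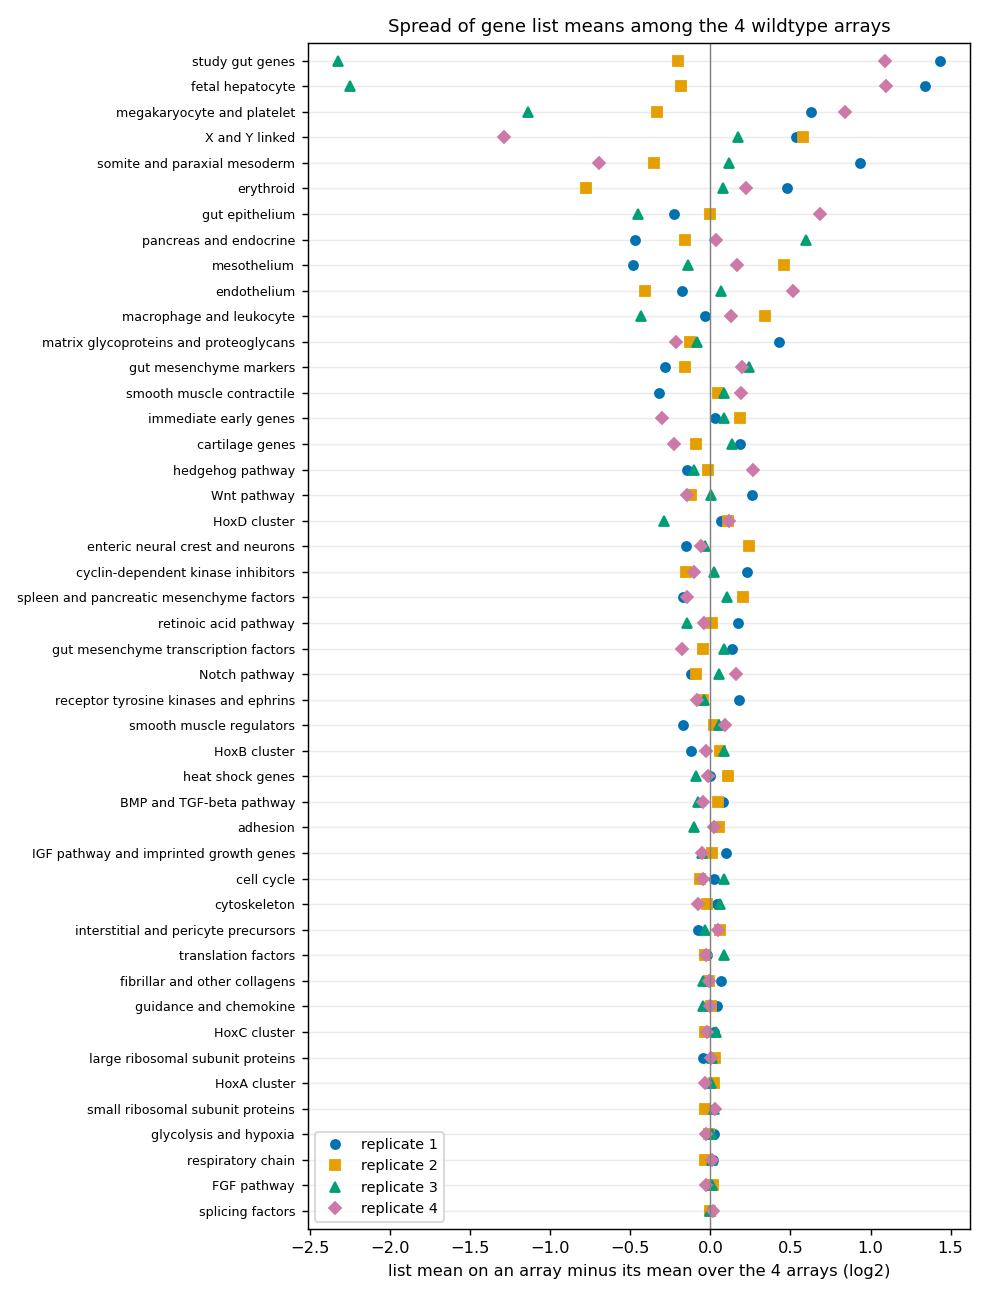
Mean level of each of the 46 gene lists on each wildtype array minus its mean over the 4 arrays (x, log2; a symbol for each replicate), sorted by range. The study's gut genes and the lists of liver and platelet genes spread widest, with replicate 3 lowest. The X- and Y-linked list and the somite list follow, with replicate 4 lowest, while housekeeping lists lie within a narrow band around 0 on this quantile normalised scale.

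Genes of the fetal liver differed widely among the arrays. Afp (ILMN_1245472), the alpha-fetoprotein of the embryonic liver and yolk sac, read 12.59, 11.12, 7.17 and 12.24 on replicates 1 to 4, a range of 5.43 or 43-fold. Replicates 1 and 4 were high, replicate 2 lay between and replicate 3 was low, and without replicate 3 the range of Afp was 1.47. The protease inhibitor Serpina1b read 10.69, 8.93, 5.41 and 9.71 and was not detected on replicate 3. Ambp, a precursor of a plasma protease inhibitor, read 11.07, 9.41, 6.50 and 10.60, and Apoa1, the apolipoprotein of high-density lipoprotein, 10.53, 8.41, 5.85 and 10.25. The same arrays were high and low for these genes as for Afp. The plasma protein genes Kng1 and Itih2 ranged by 4.97 and 4.94, but they were not detected on replicate 3, so that these ranges reach down to background and do not measure the full difference. Of 20 hepatocyte genes measured, 8 were detected on all 4 arrays (40.0%, beside 49.2% of all genes), 10 on some and 2 on none. Among the 18 detected on any array 17 were lowest on replicate 3, with Tdo2, named after its values were seen, as the exception. The list averaged 9.16, 7.64, 5.57 and 8.91, and its range of 3.59 fell to 1.52 without replicate 3. Of the 16 members detected on at least 3 arrays, 13 were among the 87 genes with a range over 2. Serpina1b has near-identical paralogues on the array (Serpina1a, Serpina1d), which the probes may not tell apart.

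Alb and Fgb, abundant transcripts of the liver, were detected on no array, with Alb at 4.33, 4.39, 4.44 and 4.44 from a single probe. The transcription factor Hnf4a, shared by liver and gut epithelium, read 6.90, 5.94, 5.33 and 6.72 and was detected on 3 arrays. The metallothionein Mt1, a metal-binding protein abundant in fetal liver, was not in the list and is named after its value was seen. It read 12.58, 11.19, 9.23 and 12.44 in the same order of arrays. Whether liver cells in the sorted samples contributed to these signals was not tested.

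Sites of the liver transcription factor HNF1 are known from promoters of this group. The motif, the half-site GTTAAT followed by any base N and the complementary half-site ATTAAC, was searched with at most 2 mismatches on both strands of the RefSeq windows (build GRCm38.p6; the motif equals its own complement) and found for 4 of the 16 list members with a window, or 25%, against 1.58% of all genes. The matches of Afp and Hnf4a, detected on 4 and 3 arrays, and of Alb and Fgb, detected on none, are shown with the 13 matched bases in capitals.
Afp (chr5:90490601-90490629, plus strand, capitals starting at base -105 from the gene start): cctgctctGTTAATTATTGGCaaattgcc
Afp (chr5:90490667-90490695, plus strand, capitals starting at base -39 from the gene start): cactgaagGTTACTAGTTAACaggcatcc
Hnf4a (chr2:163547066-163547094, plus strand, capitals starting at base -81 from the gene start): cgggggtgATTAACCATTAACtcctaccc
Alb (chr5:90460830-90460858, plus strand, capitals starting at base -32 from the gene start): taagtatgGTTAATGATCTACagttattg
Fgb (chr3:83049879-83049907, minus strand, capitals starting at base -36 from the gene start): accaaaatGTCAAATATTAACtaaaggga
Of the 4 genes with a match, 2 thus gave no signal above background on any array. Hnf4a had a further match before another annotated start, which is not shown. A match describes the letters only.

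Megakaryocyte and platelet genes followed a similar order of arrays. Pf4, the platelet chemokine, read 12.15, 11.06, 9.76 and 12.12 (rank 854). The beta-tubulin of platelets, Tubb1, read 9.45, 8.35, 7.09 and 9.48 and Ppbp, another platelet chemokine, 9.19, 8.43, 6.82 and 9.43. Replicates 1 and 4 were high and replicate 3 was low for each. The lipoxygenase Alox12 and the surface glycoproteins Gp5 and Treml1 had ranges of 2.20, 2.46 and 2.14, with replicate 4 highest and replicate 3 lowest. Of 13 genes 7 were detected on all 4 arrays (53.8%, beside 49.2% of all genes), and 10 of the 11 detected on any were lowest on replicate 3. The list averaged 8.20, 7.24, 6.44 and 8.42, a range of 1.98 that was 1.19 without replicate 3. Itgb3 and Selp were detected on none.

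The globin genes fell into separate patterns. The embryonic genes, which primitive red cells of the yolk sac express, were lowest on replicate 2. Hbb-y read 11.06, 9.02, 10.90 and 10.40, Hbb-bh1 8.52, 6.38, 8.36 and 7.53 and Hba-x 8.01, 5.82, 7.81 and 7.03. Replicates 1 and 3 were high and close to each other for these 3 genes. The adult beta-globins, which definitive red cells of the fetal liver express, were mostly lowest on replicate 3 instead, as were all 6 probes of Hbb-bs and 3 of the 4 of Hbb-bt. Hbb-bt read 10.52, 9.84, 8.20 and 10.37 and Hbb-bs 10.95, 10.14, 8.75 and 10.86, in the order of the hepatocyte genes (both named after their values were seen). Hbb-b2, in the same case, read 6.27, 7.98, 4.57 and 7.40 and was lowest on replicate 3 but highest on replicate 2. These adult genes are near-identical, so their probes may share signal. The adult alpha-globin Hba-a1 read 10.70, 9.90, 9.89 and 10.40, with replicates 2 and 3 low and alike. The erythroid list averaged 8.50, 7.25, 8.10 and 8.25, and its range of 1.25 was 0.40 without replicate 2. Hbb-bs, Hbb-bt and Hbb-b2 are not in this list. The 3 list members with a range over 2 were the embryonic Hbb-y, Hbb-bh1 and Hba-x, so the mean does not describe the adult beta-globins. Gata1, Alas2, Epor and Tal1, genes of immature red cells, were detected on none.

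The genes listed for somites and paraxial mesoderm were mostly highest on replicate 1 and mostly lowest on replicate 4. Foxd1, a forkhead gene of kidney stroma and other mesenchyme, read 11.64, 10.005, 10.34 and 8.80. Foxc2, which the sclerotome and vessels need, read 10.38, 8.91, 9.43 and 7.51, and Tbx1, a gene of pharyngeal mesoderm, 9.52, 7.41, 7.93 and 6.08. For each of them replicates 2 and 3 lay between the other arrays. Meox2, a homeobox gene of the somite, read 10.32, 6.80, 8.25 and 7.95 and differed in that replicate 2 was lowest, as it was for Meox1. Foxc1, a relative of Foxc2, ranged by 2.54. Of 12 list members detected on any array 10 were highest on replicate 1. Pax3, Pax7, Pax9 and Myod1, genes of the dermomyotome, sclerotome and muscle, were detected on none, and the sclerotome gene Pax1, named after its values were seen, read 7.11, 6.28, 5.86 and 4.86. The list averaged 8.35, 7.06, 7.53 and 6.72, a range of 1.63 that was 0.80 without replicate 1. Prrx1, a gene of limb and lateral plate mesenchyme, read 8.76, 6.83, 7.45 and 5.69, and the small leucine-rich proteoglycan Ogn, named after its value was seen, read 11.44, 10.19, 9.68 and 9.15. The name of the somite list does not identify cells. Its genes Pax3, Pax7, Pax9 and Myod1 were undetected, while Meox1, Meox2, Foxc1 and Foxc2 were detected on all 4 arrays. Its members Foxd1 and Tbx1 are genes of other mesenchyme or mesoderm too. Replicate 1 was thus high for Lox, Sfrp2, Vcam1 and most detected genes of the somite list, and low for Acta2, Actg2, Mylk and Myh11. The part of tissue next to the gut in these differences was not tested.

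Epithelial genes were weak and mostly highest on replicate 4. Of 22 measured, 4 were detected on all 4 arrays (18.2%, beside 49.2% of all genes), 12 on some and 6 on none. Of the 16 detected on any, 10 were highest on replicate 4. Cdx2, the intestinal homeobox gene, read 4.58, 4.95, 4.74 and 7.78, and Shh, a hedgehog ligand of the epithelium, 4.61, 5.50, 5.23 and 7.79. Both were detected on replicate 4 alone. Cldn6 read 5.87, 6.82, 6.41 and 7.95 and the epithelial cadherin Cdh1 6.99, 7.02, 6.23 and 8.06, again highest on replicate 4. The defining genes Epcam, Vil1 and Foxa2 were detected on none. The list averaged 5.995, 6.22, 5.77 and 6.91, and its range of 1.14 was 0.45 without replicate 4. Of 17 endothelial genes 8 were detected on all 4 arrays (47.1%, near the 49.2% of all genes). Of the 13 detected on any, 11 were highest on replicate 4. Emcn read 6.93, 6.67, 7.34 and 7.85 and Esam 6.84, 6.72, 6.93 and 7.97, while the endothelial receptor gene Kdr was detected on none.

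Of 10 genes of mesothelium, the cell layer that covers the gut, 8 were detected on all 4 arrays (80.0%, beside 49.2% of all genes). The uroplakin Upk3b read 9.21, 10.55, 9.75 and 10.01 and Upk1b 9.59, 10.93, 9.94 and 10.44. Replicate 2 was highest and replicate 1 lowest, as for 7 of 9 members at either end. Of 16 genes of enteric neural crest and neurons 10 were detected on all 4 arrays (62.5%). Enteric neural crest genes were near the detection limit apart from Ednrb, the endothelin receptor, at 10.69, 10.81, 11.17 and 11.29 (rank 1502), Gap43 and Stmn2. Sox10, which defines the crest cells, read 5.52, 7.50, 6.02 and 6.57 and was highest on replicate 2, and the receptor Ret, named after its value was seen, held rank 8882. Macrophage and leukocyte genes were detected on all 4 arrays for 10 of 17 (58.8%), on some for 5 and on none for 2. Adgre1, at 7.79, 8.25, 6.83 and 7.83, and Csf1r were among those detected on all 4, and Ptprc was among the undetected. Replicate 3 was lowest for 11 of the 15 members detected on any array. The pancreas list had a single gene detected on all 4 arrays (9.1%), Amy2a5, and the list ranged by 1.07. Its mean rests on only 3 genes detected on any array, while 8 were detected on none. Its most variable member, the glucagon gene Gcg, read 4.94, 5.36, 7.33 and 5.83 and was highest on replicate 3. Gcg was detected on 2 arrays only, so its range reaches down to background. Without replicate 3 the range of the list was 0.52.

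Sex-linked genes differed as well. Xist, the transcript of the inactive X chromosome in female cells, read 12.02, 11.48, 11.48 and 11.79 and was detected on all 4 arrays. These values come from its brightest probe. Its other 3 probes were highest on replicate 4, and the one with the widest range read 9.36, 8.93, 9.47 and 10.24. The Y-linked translation factor gene Eif2s3y read 10.23, 10.59, 10.04 and 7.16, and the Y-linked demethylase gene Kdm5d 8.43, 8.74, 7.86 and 5.43. Signal of Xist and of Y-linked genes thus occurred together on all 4 arrays, since Eif2s3y was detected on each. On replicate 4 the Y-linked genes were low, with Kdm5d and Uty not detected. The labels do not give the sex of the embryos.

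Immediate early genes, which tissue handling can raise, were detected for 11 of 20, or 55%, near the 49.2% of all genes. Fos read 9.86, 10.71, 10.42 and 9.02 and Egr1 11.11, 11.84, 11.41 and 10.11. Fosb, with 6.90, 8.09, 7.34 and 6.07, had the largest range of the list. All 3 were highest on replicate 2 and lowest on replicate 4. The list mean was 7.87, 8.03, 7.93 and 7.54, with the same highest and lowest arrays. Its range of 0.49 fell to 0.16 without replicate 4. Of the 15 members detected on any array, 8 were lowest on replicate 4, but only 4 were highest on replicate 2. Of 12 heat shock genes 10 were detected on all 4 arrays (83.3%), with a list mean that moved by 0.20. Hspa8, the constitutive chaperone, held rank 63. Of the variable genes in no list, Cap1, an actin-binding protein, read 8.89, 11.33, 7.84 and 10.97, high on replicates 2 and 4, and Sostdc1, a secreted antagonist of BMP and Wnt signals, read 9.26, 6.13, 8.21 and 8.05, low on replicate 2. Sostdc1 is named after its value was seen.

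**Figure D5:**
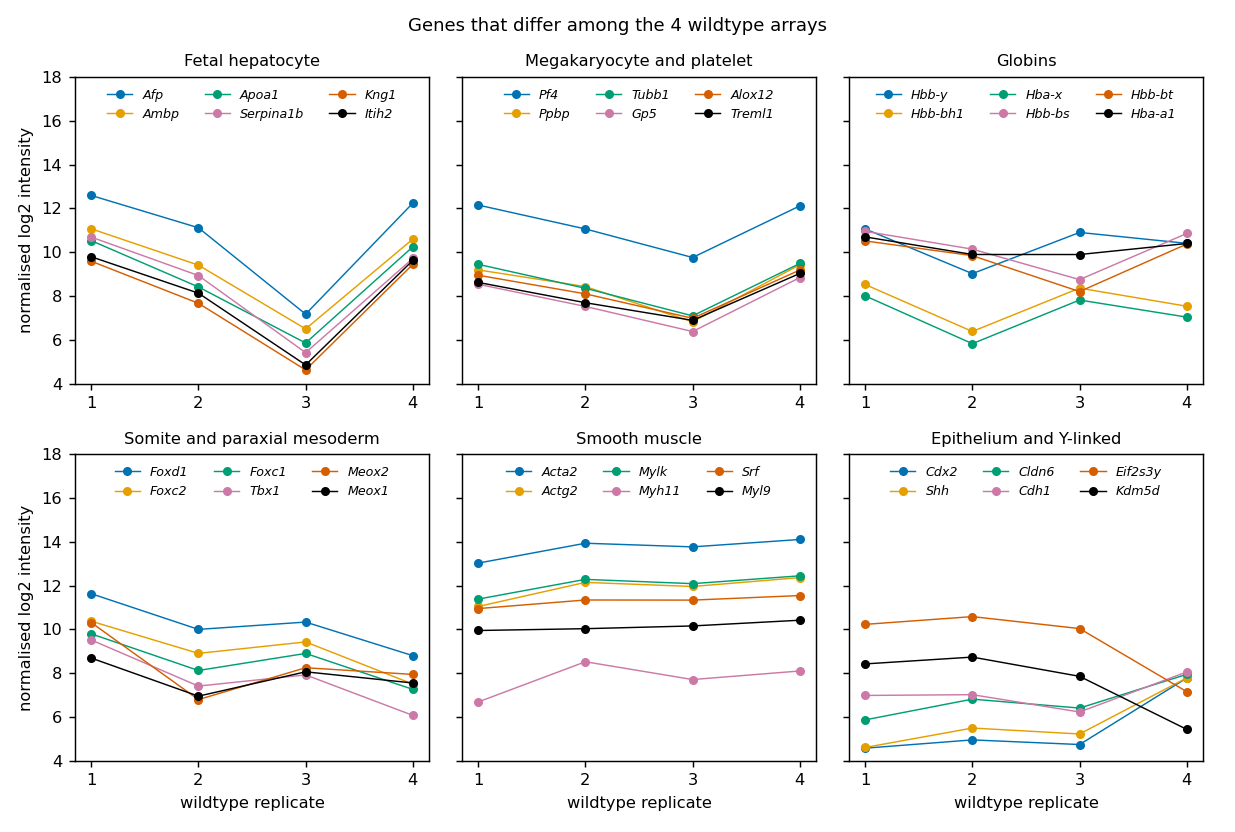
Normalised log2 intensity (y) of 36 named genes on wildtype replicates 1 to 4 (x) in 6 groups; lines join the values of a gene and imply no order of replicates. Liver and platelet genes dip on replicate 3 and embryonic globins on replicate 2. Genes of the somite list peak and smooth muscle genes dip on replicate 1, and Cdx2 and Shh rise on replicate 4 where the Y-linked genes fall.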

How the data were processed

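Gene expression was measured on Illumina MouseWG-6 v2.0 BeadChips, with 1 array for each of 4 wildtype samples. The authors deposited raw probe intensity on a linear scale, exported with GenomeStudio (version: not given in the sources used here). The values were neither background subtracted nor normalised, since the lowest value was 29.8 and array medians differed. The authors also deposited, for each probe and array, a fraction headed as a detection p, which rose towards 1 with signal and was read as a detection score (1 minus the p). The authors further deposited processed values on a log2 scale, equal to the log2 intensity minus the array median and minus a baseline for each probe, whose origin is unknown. They served as an alternative. Both tables used different row names and were joined on differences between arrays, which matched within 3.02e-06 for all 45281 rows, the closest competing row being 0.0124 away.

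Symbols came from the platform annotation, which gave several for 18 probes and none for 10378. A gene was represented by its probe detected on most arrays and, among these, with the highest mean intensity. Ranks used the mean deposited intensity. Levels were background corrected with nec of limma 3.58.1 in R 4.3.3 (offset 16, controls inferred from the detection p), quantile normalised over the 4 arrays and log2 transformed. The mean of a list was taken over its members detected on at least 1 array. Of 869 list entries 800 matched a measured symbol. No comparison of groups was tested, since the 4 arrays form a single group. Dixon's criterion was applied within it to list single arrays that stood apart. The detected share of all genes is 49.2%, against which list counts are read. The samples and gene lists were chosen with earlier results of these data known.

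The rule for named genes took the 4 markers, the 25 brightest genes, the 20 with the largest range, and from each list up to 8 detected members by intensity, up to 4 undetected members and the member with the largest range, with Nkx3-2, Afp, Xist and the gut genes of the study always included. Genes outside it are marked. Alternatives were other detection limits, normalisations, background corrections and probes, and leaving out each array. The range rule and the join were tested on simulated data. Computation used Python 3.11.15 with pandas 2.3.3. Depth in reads does not apply to arrays, and the number of 4 arrays limits the precision.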

Additional observations from a re-analysis of the deposited data

Results flagged for a closer look

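In groups of 4, a value is listed here where the gap between the extreme array and its neighbour was a larger share of the whole range than Dixon's 95% critical value. Chance flags about 1 in 20 groups, and of all genes detected on at least 3 arrays 4.59% were flagged. Among the 160 genes named here and detected on any array 8 were flagged, and among the 46 list means 5.

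Replicate 4 stood apart for 4 of the named genes. Cdx2 was high on it (4.58, 4.95, 4.74 and 7.78 on replicates 1 to 4, a gap of 0.882 of the range), and Esam, an endothelial adhesion gene, was high as well (6.84, 6.72, 6.93 and 7.97, 0.831). Eif2s3y was low (10.23, 10.59, 10.04 and 7.16, 0.841). Gli2 was also low (11.22, 11.22, 11.23 and 10.98, 0.947), but its whole range was only 0.25. Replicate 1 stood apart for Vcam1, where it was high (10.94, 9.81, 9.73 and 9.82, 0.922), for Scara5, likewise high (8.25, 5.89, 5.42 and 5.65, 0.833), although another probe of Scara5 read 5.56, 5.65, 5.27 and 5.66 and did not show this, and for Fgf10, where it was low (10.45, 10.90, 10.91 and 10.84, 0.85). Replicate 3 stood apart for Hoxd3, where it was low (7.57, 7.58, 6.68 and 7.44, 0.85).

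Among list means, that of the HoxD cluster was low on replicate 3 (8.46, 8.51, 8.11 and 8.51, 0.874). The mean of the receptor tyrosine kinases and ephrins was high on replicate 1 (0.838), with a range of 0.26. The means of translation factors (0.913, high on replicate 3), splicing factors (0.939, high on replicate 4) and the respiratory chain (0.864, low on replicate 2) were flagged although they ranged by 0.12, 0.02 and 0.05. The lists with the widest ranges, those of liver, platelet and somite genes, were not flagged, since their other arrays differed from each other too.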

How the results depend on the processing

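No paired analysis was possible because the 4 arrays form a single group and no result comes from a comparison of groups. The number of detected genes was 9375, between 8669 and 10219 with other detection limits or with 3 of 4 arrays required, and between 9423 and 9519 without any single array. Requiring every probe of a gene lowered it to 5502, and counting probes instead of genes gave 16481. The 87 genes with a range over 2 were 52 with no background correction and 50 with an offset of 50, all of them among the 87. Both settings raise the floor under dim probes, which compresses their differences. Requiring detection on all 4 arrays left 43. Leaving out 1 array gave between 48 and 93 genes, the lowest without replicate 3. Other normalisations, the processed values and no detection filter gave 61 to 112. Of 19 of these genes with several probes detected on at least 3 arrays, 17 had every probe over 2. Of the 100 brightest genes, 97 to 99 remained without any single array, 99 by mean log2 or median intensity, and 71 when all probes of a gene were averaged. The 8 lists that moved by more than 1 were 6 to 8 under the other settings and 5 to 7 without any single array, with 5 without replicate 1. The range of the hepatocyte list was between 2.91 and 3.999 under the settings that kept all 4 arrays but 1.52 without replicate 3, that of the platelet list between 1.60 and 2.22, and that of the somite list between 1.38 and 1.88. The ranges of the epithelium and pancreas lists fell to 0.80 and 0.57 at the lowest with all 4 arrays kept and were then under 1. They fell further to 0.45 without replicate 4 (epithelium) and 0.52 without replicate 3 (pancreas). The platelet list fell to 1.19 without replicate 3 and the somite list to 0.80 without replicate 1. The ranges of list means moved by more than the SD over the arrays for 18 of 46 lists with median scaling, 27 with no normalisation between arrays and 23 with the processed values, and for at most 2 under the other settings with all 4 arrays. Without replicate 4 that of the X- and Y-linked genes fell from 1.87 to 0.40. For named genes, 409 of the recomputed ranges moved by more than the SD over the arrays and 2020 did not. Signal over background limits the genes near the detection limit, whose range was widest.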

Other observations

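Some values belong to no group described so far, and Wnt2, Ebf3, Scara5 and Kazald1 below were named after their values were seen. Of 19 measured genes of glycolysis and the hypoxia response, 15 were detected on all 4 arrays (78.9%, beside 49.2% of all genes), led by Gapdh (rank 164). The list mean ranged by 0.05, or by up to 0.49 with no normalisation between arrays. Wnt2, a ligand of foregut and lung mesenchyme, read 8.13, 5.88, 6.14 and 5.46 and Rspo2, an enhancer of Wnt signals, 7.87, 5.14, 5.79 and 4.84. Both were highest on replicate 1, and Rspo2 was detected on 2 arrays only. Ebf3, a transcription factor of mesenchyme, read 12.10, 10.39, 10.99 and 10.05, and Scara5, a ferritin receptor of stromal cells, 8.25, 5.89, 5.42 and 5.65, with replicate 1 again the highest, although another probe of Scara5 did not show this. Kazald1, a secreted protein with an IGF-binding domain, read 6.04, 8.07, 7.54 and 4.71 and was low on replicate 4 and, less so, on replicate 1.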
